A study of Mus musculus with 9 samples.

Results

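A set of 10 cytosolic sulfonation genes was followed in mouse liver RNA-Seq data. They are 8 sulfotransferase genes (Sult1a1, Sult1b1, Sult1c2, Sult1d1, Sult1e1, Sult2a7, Sult2a8 and Sult5a1) and 2 genes for the enzymes that make the sulfate donor (Papss1 and Papss2). They were chosen by symbol from the deposited gene table, with no threshold on a measured value, and are 10 of its 34866 genes. Earlier results of these data were known when the choice was made. A further 19 genes or pseudogenes in the table carry a symbol that starts with Sult. Of these 19, 12 had no count in any library, and the most abundant of the rest, the sulfotransferase-like gene Sult4a1, had 15 counts over 9 libraries, too few to be tested.

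The libraries came from the livers of 9 wild-type (WT) male C57BL/6J mice, bought at 5 weeks of age, with 3 mice in each of 3 groups. MG mice lived in microgravity aboard the International Space Station for about 30 days. A1G mice lived on the same station over the same period, in cages spun to give artificial gravity of 1 g. GC mice were ground controls kept at 1 g on Earth. Both flight groups also went through launch, a stretch of weightlessness in the transport cages, landing, and a delay between splashdown and dissection. The GC mice were housed in Japan in the following year, in air with less carbon dioxide than on board. The comparison of MG with GC therefore holds all differences between flight and ground, that of A1G with GC holds all of them but sustained weightlessness, and that of MG with A1G is the comparison of gravity on board.

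Sulfonation moves a sulfonate group onto a phenol, steroid, bile acid or amine, which makes the product more soluble in water and often inactive. The donor is 3′-phosphoadenosine-5′-phosphosulfate (PAPS), built from ATP and inorganic sulfate by the PAPS synthases, and the transfer is made in the cytosol by the SULT enzymes. The liver is a main site of the reaction, for hormones and bile acids as well as for drugs, and in the mouse several SULT genes are expressed at different levels in the sexes.

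The total of estimated counts per library ran from 13189515 to 23738049. Counts were normalised by TMM and are given as CPM, read counts relative to the scaled library size, and levels of different genes are compared only in TPM, a unit that allows for transcript length. Fold changes are on the log2 scale with their standard errors (SE) from edgeR's quasi-likelihood model of all 9 libraries, and a gene is said to rise or fall only where the Benjamini-Hochberg adjusted p over 13193 tested genes was under 0.05. All 10 genes passed the filter on low counts. Hepatocyte markers were present in all livers, with a summed level of 75075 to 86912 CPM in MG, 77815 to 82961 CPM in A1G and 82002 to 84257 CPM in GC mice, whereas the kidney genes Slc34a1, Kap, Slc12a1 and Aqp2, the intestinal genes Alpi and Sis, and the pancreatic genes Prss2, Cpa1 and Pnlip were at 0. Other genes of those tissue lists did have counts. The whole intestinal list summed to 51.2 to 83.4 CPM in MG, 43.6 to 91.4 CPM in A1G and 73.7 to 103 CPM in GC mice. The kidney list summed to 0.32 to 0.881 CPM over all livers, and the pancreatic sums are given below. The GC libraries gave 6.83% to 11.42% of their counts to the major urinary protein genes, against 2.67% to 4.24% in the flight libraries. In a homogenate, fewer cells of a type and less RNA per cell cannot be told apart.

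Of these genes, 5 of 10 stand beside a close relative, and the sequences of the regions discussed below are given first. In GENCODE M21 (GRCm38), Sult1b1 (chr5:87513339-87538195), Sult1d1 (chr5:87554645-87569027) and Sult1e1 (chr5:87575969-87591594) are neighbours on the minus strand of chromosome 5, within 78.3 kb. Sult2a8 (chr7:14410686-14446769) and Sult2a7 (chr7:14465051-14494230) are neighbours on the minus strand of chromosome 7, 18.3 kb apart. Sult1a1 lies elsewhere on chromosome 7 (chr7:126672865-126676432), Sult1c2 on chromosome 17 (chr17:53829637-53846339), Sult5a1 on chromosome 8 (chr8:123140192-123158315), Papss1 on chromosome 3 (chr3:131564768-131643671) and Papss2 on chromosome 19 (chr19:32595790-32667187). The RefSeq promoter windows of GRCm38.p6 run from 250 bases before to 50 bases after a start site. Those printed are for the chromosome 5 cluster, where edgeR called Sult1e1 but not its neighbours, and for Sult5a1, which was also called. They are all on the minus strand, and capitals mark AGGTCA, the half-site of many nuclear receptors, read on either strand.
Sult1e1, chr5:87591562-87591861: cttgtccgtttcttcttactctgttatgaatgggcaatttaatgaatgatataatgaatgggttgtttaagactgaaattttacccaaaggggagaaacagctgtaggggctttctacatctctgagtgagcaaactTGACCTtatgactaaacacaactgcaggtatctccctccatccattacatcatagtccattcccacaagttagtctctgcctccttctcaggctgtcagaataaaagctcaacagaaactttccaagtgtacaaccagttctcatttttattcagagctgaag
Sult1d1, chr5:87568957-87569256: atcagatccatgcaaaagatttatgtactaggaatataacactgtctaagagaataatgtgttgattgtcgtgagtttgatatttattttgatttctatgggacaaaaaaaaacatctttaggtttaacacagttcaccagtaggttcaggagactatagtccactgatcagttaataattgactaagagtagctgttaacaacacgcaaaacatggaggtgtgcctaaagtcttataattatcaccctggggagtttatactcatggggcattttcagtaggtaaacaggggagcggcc
Sult1b1, chr5:87538146-87538445: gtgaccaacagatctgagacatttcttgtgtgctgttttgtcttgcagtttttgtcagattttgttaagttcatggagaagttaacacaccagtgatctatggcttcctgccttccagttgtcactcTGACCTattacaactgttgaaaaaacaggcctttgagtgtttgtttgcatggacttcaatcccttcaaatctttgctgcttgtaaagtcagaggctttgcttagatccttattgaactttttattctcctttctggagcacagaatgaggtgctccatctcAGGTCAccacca
Sult5a1, chr8:123158231-123158530: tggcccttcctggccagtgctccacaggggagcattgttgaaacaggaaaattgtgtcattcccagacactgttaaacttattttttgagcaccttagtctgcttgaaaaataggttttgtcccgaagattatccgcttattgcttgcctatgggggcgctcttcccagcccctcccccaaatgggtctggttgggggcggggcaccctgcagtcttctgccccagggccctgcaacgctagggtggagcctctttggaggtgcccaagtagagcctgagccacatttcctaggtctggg
The window of Sult1e1 held 1 match, at position -113 from its start site and in the reverse orientation. The printed window of Sult1b1 held 2, at -123 and 38. Another window of Sult1b1, chr5:87536173-87536472, is not printed and held none. The windows of Sult1d1 and Sult5a1 held none. RefSeq windows were at hand for 9 of the 10 genes (13 windows, with Sult2a7 missing), and AGGTCA stood in 4 of the 13, against 16.3% of 32851 promoter windows of all genes. The STAT5 motif TTCNNNGAA, also searched on both strands, stood in 0 of the 13, against 8.3% of all windows. A match is a description of these letters and not of a bound site.

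The coding sequences of the family 2A genes are shown because Sult2a7, which rose in MG mice, is counted beside close relatives. These are the first 60 coding bases of their GENCODE transcripts, read from the start codon, with capitals where a base differs from Sult2a7 at the same position without gaps.
Sult2a7: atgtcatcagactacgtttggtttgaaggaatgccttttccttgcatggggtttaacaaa
Sult2a8: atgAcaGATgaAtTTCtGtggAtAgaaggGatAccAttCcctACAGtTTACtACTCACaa
Sult2a1: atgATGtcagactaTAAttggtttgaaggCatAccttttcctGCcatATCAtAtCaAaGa
Within these 60 bases Sult2a8 differed at 29 positions and Sult2a1 at 18. Over the whole coding sequence, Sult2a7 was 61.5% identical to Sult2a8 and 73.6% identical to Sult2a1. Only 0.314% of the 31-base words in the Sult2a7 transcripts occurred in a transcript of another gene, and none of those of Sult1b1, Sult1d1 or Sult1e1 did. The largest share was that of Sult1a1, at 9.35%, nearly all of it with the gene model Gm6939. Estimated counts of Sult1e1, Sult1b1, Sult1c2 and Sult1d1 were whole numbers, within 0.01 of a count, in every library, and those of Sult5a1 were not whole in 7 of the 9. Among the members, 3 have a gene on the opposite strand: Sgf29 shares 61 exonic bases with Sult1a1, and Gm20388 overlaps Sult5a1, and Gm42881 Papss1, without shared exonic bases. The library kit kept strand, but whether the counting used it is not given in the sources used here, so reads of such pairs may not be fully separated.

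By TPM, the liver's sulfotransferase RNA came from few genes. Sult1a1, the phenol sulfotransferase, averaged 520 ± 32.4 TPM in MG, 351 ± 95.8 TPM in A1G and 358 ± 49.1 TPM in GC mice (SD, n = 3 each). Sult2a8, a family 2A enzyme known in mouse for sulfonation of bile acids, averaged 414 ± 31.6, 368 ± 85.1 and 347 ± 29.4 TPM in MG, A1G and GC mice. These 2 genes could not be ordered, since the ratio of Sult1a1 to Sult2a8 within a library was between 1.11 and 1.46 in MG, between 0.883 and 1.05 in A1G and between 0.815 and 1.27 in GC mice. Sult1d1, which acts on catecholamines in the mouse, was the next at 67.3 to 176 TPM, and the 3 genes together made up 95.9% to 97.7% of the TPM of the 8 Sult genes. Papss2 followed at 35.0 to 50.1 TPM and stood above Sult1b1, at 7.50 to 26.1 TPM, in every liver. Sult1b1 and Papss1 (7.59 to 13.9 TPM) overlapped in range. The remaining genes were low: Sult2a7 had 1.71 to 11.5 TPM, Sult5a1 1.22 to 11.1 TPM, Sult1e1 0 to 4.52 TPM and Sult1c2 0.437 to 1.49 TPM. Each of these low genes overlapped in range with the next in that order.

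**Figure D1:**
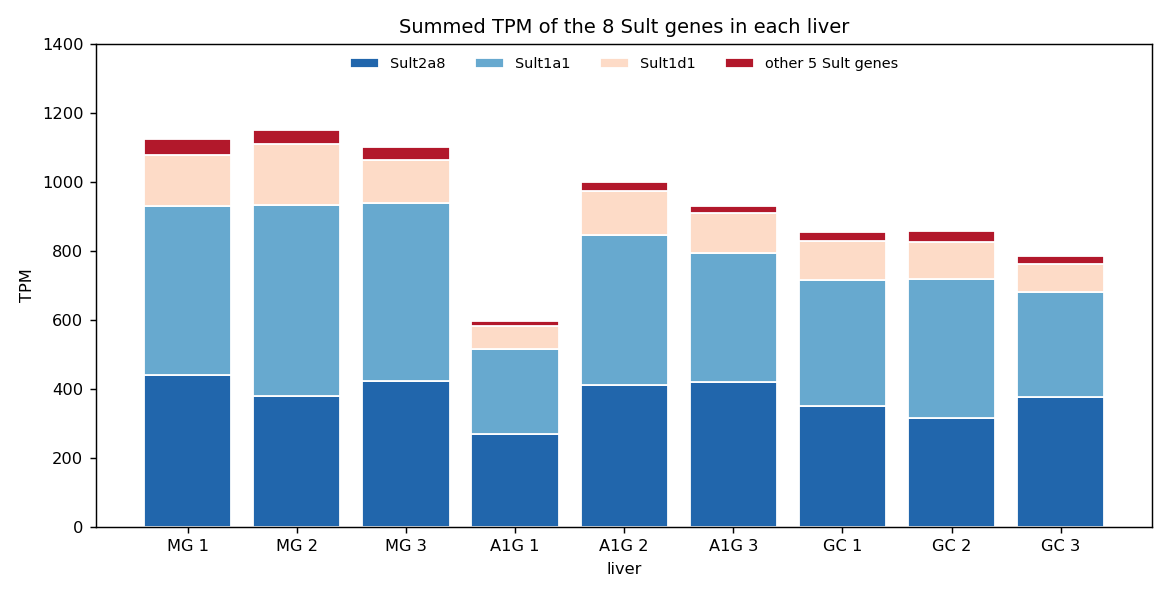
Summed TPM of the 8 Sult genes in each of the 9 livers (x axis), with the y axis in TPM and the bar split into Sult2a8, Sult1a1, Sult1d1 and the other 5 genes. The sum was 1102 to 1150 in MG, 597 to 999 in A1G and 785 to 859 in GC mice, and the other 5 genes never exceeded 45.6 TPM.

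The summed level was 1124, 1150 and 1102 TPM in MG mice, 597, 999 and 931 TPM in A1G mice and 854, 859 and 785 TPM in GC mice. MG livers thus stood above GC livers in TPM, but not in TMM-normalised counts, where the same 8 genes summed to 1169, 1213 and 1155 CPM in MG, 593, 1079 and 945 CPM in A1G and 1251, 1081 and 893 CPM in GC mice. On the TPM scale the median of all genes was itself shifted, by 0.24 on the log2 scale for MG over GC and by 0.24 for A1G over GC, against 0.00 in CPM. No test was made of the sum.

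In all, 3 of the 10 genes changed in MG compared to GC mice. Sult1e1 and Sult2a7 rose and Sult5a1 fell, all of them genes of low level, and the other 7, which include every abundant sulfotransferase and both PAPS synthases, did not pass the test. The background of this comparison was 3.33% of genes called (1.17% higher and 2.15% lower). The median log2 fold change of the 10 genes was 0.12, and that of all genes 0.00. In A1G compared to GC mice and in MG compared to A1G mice, 0 of the 10 genes were called by edgeR, where the backgrounds were 0.644% of genes (0.174% higher and 0.47% lower) and 0.0758% (0.0531% higher and 0.0227% lower). Without adjustment, p was under 0.05 for 4 of the 10 in MG over GC, 2 higher and 2 lower, where 18.5% of all tested genes were (8.23% higher and 10.2% lower). The same held for 3 of the 10 in A1G over GC, all lower, against 14.2% of all genes (6.61% higher and 7.61% lower), and for 4 in MG over A1G, all higher, against 8.97% (4.37% higher and 4.61% lower). The median log2 fold change of the 10 was -0.30 for A1G over GC and 0.49 for MG over A1G, against 0.00 and -0.01 over all genes. These 3 comparisons share samples in pairs and are not independent of one another.

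**Figure D2:**
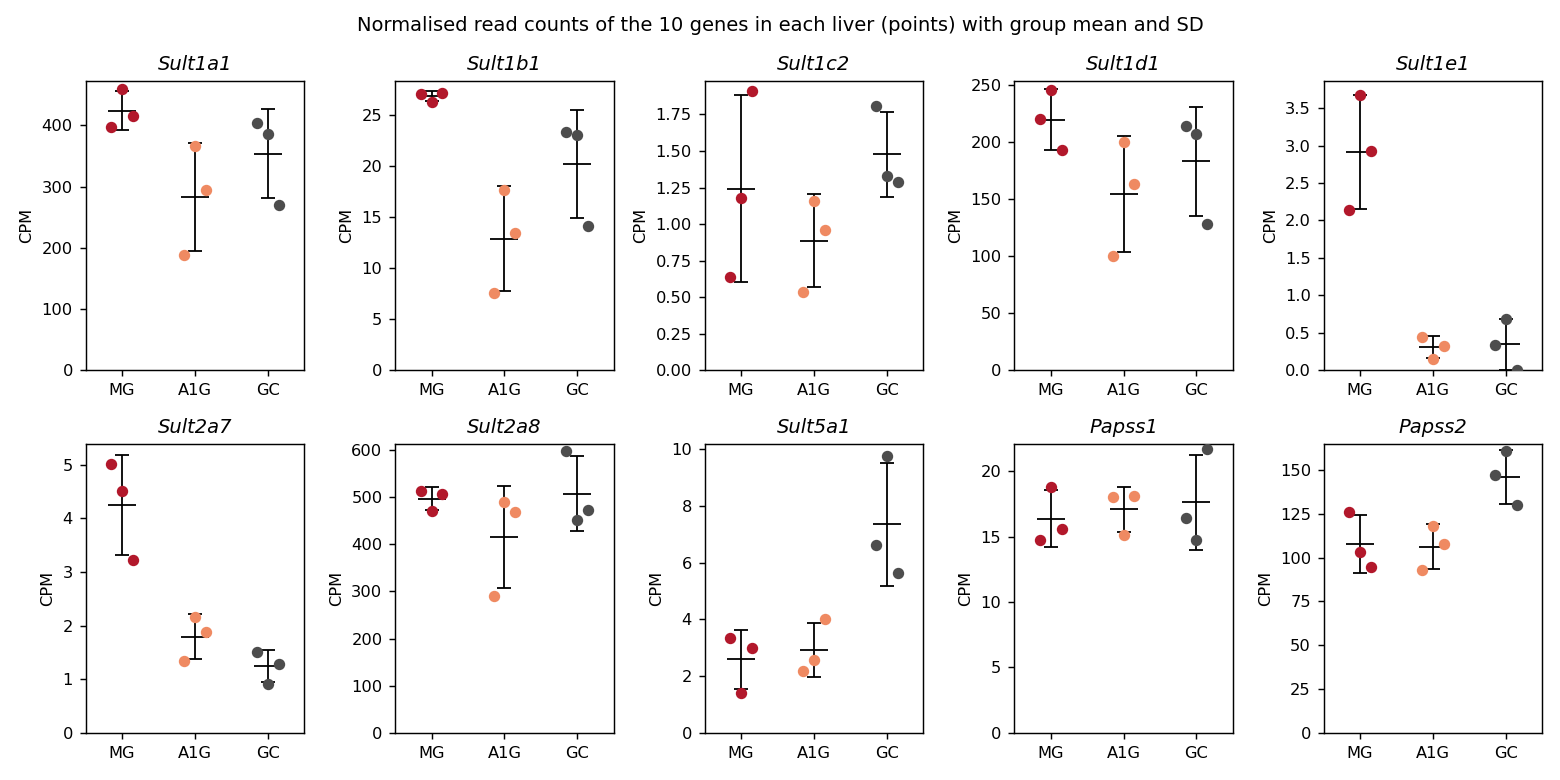
CPM (y axis, from 0, a separate scale per gene) of the 10 genes in each liver of the MG, A1G and GC groups (x axis); points are mice, and the bars are the group mean and SD (n = 3). Sult1e1 lies between 2.14 and 3.67 in MG mice and at or below 0.689 in all others, and Sult5a1 lies at or above 5.64 in GC mice and at or below 4 in all others.

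Sult1e1 encodes estrogen sulfotransferase, which inactivates estrogens and is kept low in the normal mouse liver. Its level was 2.14, 3.67 and 2.93 CPM in MG mice, 0.448, 0.151 and 0.320 CPM in A1G mice and 0.342, 0.689 and 0 CPM in GC mice. Every MG liver stood above every other liver, and A1G and GC livers overlapped. These levels rest on 37, 75 and 40 counts in MG mice, 10, 3 and 8 in A1G mice and 7, 15 and 0 in GC mice, and the count of 0 in GC mouse 3 allows up to 3 counts, or 0.176 CPM (counting error only). Sult1e1 was 8.14-fold higher in MG than in GC mice, a log2 fold change of 3.03 ± 0.68 (adjusted p = 0.0343 in edgeR's quasi-likelihood test). Relative to A1G mice it was 9.42-fold higher in MG mice (log2 fold change 3.24 ± 0.69), with an adjusted p of 0.104 that missed the threshold in edgeR, although DESeq2 called it (adjusted p = 0.00011 on 9 libraries and 4.49e-07 on 6). For A1G over GC the log2 fold change was -0.21 ± 0.78 (adjusted p = 0.932, edgeR). The call in MG over GC depended on single mice: the adjusted p from edgeR was 0.0769, 0.126 and 0.0696 without MG mouse 1, 2 or 3, 0.122 without GC mouse 1 and 0.0506 without A1G mouse 3, while the log2 fold change stayed between 2.49 and 4.01.

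The 2 neighbours of Sult1e1, whose promoter windows are printed above, showed no call in edgeR. Sult1d1 had 220, 246 and 193 CPM in MG mice, 100, 200 and 163 CPM in A1G mice and 214, 207 and 128 CPM in GC mice. Its groups overlapped in each comparison, and the log2 fold changes were 0.26 ± 0.24 for MG over GC, -0.25 ± 0.24 for A1G over GC and 0.51 ± 0.24 for MG over A1G, with adjusted p of 0.612, 0.684 and 0.579 in edgeR's test. Sult1b1, which sulfonates thyroid hormones and simple phenols, had 27.1, 26.3 and 27.2 CPM in MG mice, 7.53, 17.7 and 13.5 CPM in A1G mice and 23.4, 23.1 and 14.1 CPM in GC mice. The MG mice lay within 1 CPM of one another and above all 6 other mice, whereas A1G and GC mice overlapped. The log2 fold changes of Sult1b1 were 0.41 ± 0.26 for MG over GC, -0.65 ± 0.26 for A1G over GC and 1.06 ± 0.27 for MG over A1G, with adjusted p of 0.446, 0.297 and 0.196 in edgeR. In DESeq2 on 9 libraries the difference of MG from A1G passed (adjusted p = 0.00942).

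Sult2a7, a member of the family of hydroxysteroid sulfotransferases that prefer dehydroepiandrosterone, had the smallest p of the 10 genes. It stood at 5.02, 4.51 and 3.22 CPM in MG mice, 1.34, 2.16 and 1.88 CPM in A1G mice and 1.51, 0.918 and 1.29 CPM in GC mice. All MG livers were above all others, and A1G and GC livers overlapped. The gene was 3.45-fold higher in MG than in GC mice (log2 fold change 1.78 ± 0.31, adjusted p = 0.00975, edgeR), and the call was lost only without GC mouse 2 (1.61, adjusted p = 0.0526). For MG over A1G the log2 fold change was 1.25 ± 0.30 with an adjusted p of 0.174 in edgeR and of 0.0222 in DESeq2 on 9 libraries, and for A1G over GC it was 0.53 ± 0.32 (adjusted p = 0.471, edgeR).

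Its neighbour Sult2a8 stood at 270 to 440 TPM in these livers, against 1.71 to 11.5 TPM for Sult2a7, and did not pass the test. Sult2a8 had 514, 470 and 507 CPM in MG mice, 291, 489 and 468 CPM in A1G mice and 598, 452 and 472 CPM in GC mice, with A1G mouse 1 below all others. The log2 fold change for MG over GC was -0.03 ± 0.18 (adjusted p = 0.958, edgeR), and its sign turned under some scalings, with 0.25 on the TPM scale. The other values were -0.29 ± 0.18 for A1G over GC and 0.26 ± 0.18 for MG over A1G (adjusted p 0.506 and 0.767, edgeR). Sult2a1, of which 18 of the first 60 coding bases differ from Sult2a7 in the sequences above, had 8 counts over all 9 libraries, and Sult2a3 to Sult2a6 had 0.

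Sult5a1, a sulfotransferase whose substrates are little known, was the member that fell. It had 3.35, 1.42 and 3.01 CPM in MG mice, 2.20, 2.56 and 4 CPM in A1G mice and 6.64, 9.78 and 5.64 CPM in GC mice. All 6 flight livers were below all 3 ground livers, and the 2 flight groups overlapped. The level in MG mice was 0.348 of that in GC mice (log2 fold change -1.52 ± 0.35, adjusted p = 0.0383, edgeR). In A1G over GC the log2 fold change was -1.33 ± 0.34, with an adjusted p of 0.123 in edgeR and of 0.00869 in DESeq2 on 9 libraries, and in MG over A1G it was -0.19 ± 0.36 (adjusted p = 0.938, edgeR). This was the least stable of the 3 calls. The adjusted p for MG over GC was 0.0665, 0.122 and 0.0649 without MG mouse 1, 2 or 3, 0.0535 without A1G mouse 2, and 0.0862 and 0.168 without GC mouse 1 or 2, with log2 fold changes between -1.76 and -1.20. Among marker lists of other cells, the erythroid genes summed to 142 to 251 CPM in MG, 113 to 417 CPM in A1G and 316 to 358 CPM in GC mice, and the pancreatic list to 7.18 to 9.99, 6.85 to 10.4 and 16.3 to 19.0 CPM, nearly all from the elastase gene Cela1, which was lower in both flight groups (-1.05 ± 0.19 for MG and -1.07 ± 0.19 for A1G over GC, adjusted p 0.0123 and 0.0360, edgeR). Of the stellate cell markers, Col1a1 was lower in MG than in GC mice (-1.79 ± 0.38, adjusted p = 0.0258, edgeR), the only call among 8 in that list, of which 4 had a positive and 4 a negative log2 fold change (median 0.00, highest 0.76). The summed level of the 8 overlapped, at 221 to 245 CPM in MG, 222 to 269 CPM in A1G and 210 to 263 CPM in GC mice. These marker calls were lost as well when single mice were left out: Cela1 for MG over GC without MG mouse 2 or GC mouse 1 or 2 (adjusted p up to 0.0679, edgeR), Cela1 for A1G over GC without MG mouse 2, A1G mouse 1 or 3, or GC mouse 1 or 2 (up to 0.144), and Col1a1 without MG mouse 1 or 2 or GC mouse 1 or 2 (up to 0.112). In the cholangiocyte, Kupffer, sinusoidal endothelial and lymphocyte lists, 0 genes were called by edgeR. Their median log2 fold changes for MG over GC were -1.17, -0.38, 0.14 and -0.38. Of 5 tested cholangiocyte genes, 3 had an unadjusted p under 0.05 there, all lower, against 18.5% of all genes. The cholangiocyte list summed to 28.1 to 32.4 CPM in MG, 33.2 to 50.6 CPM in A1G and 29.7 to 56 CPM in GC mice. The pancreatic genes Prss2, Cpa1 and Pnlip were at 0 in all livers, so the level of Cela1 cannot be read as a level of pancreatic cells. The part of other cell types in the values of Sult5a1 was not tested.

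**Figure D3:**
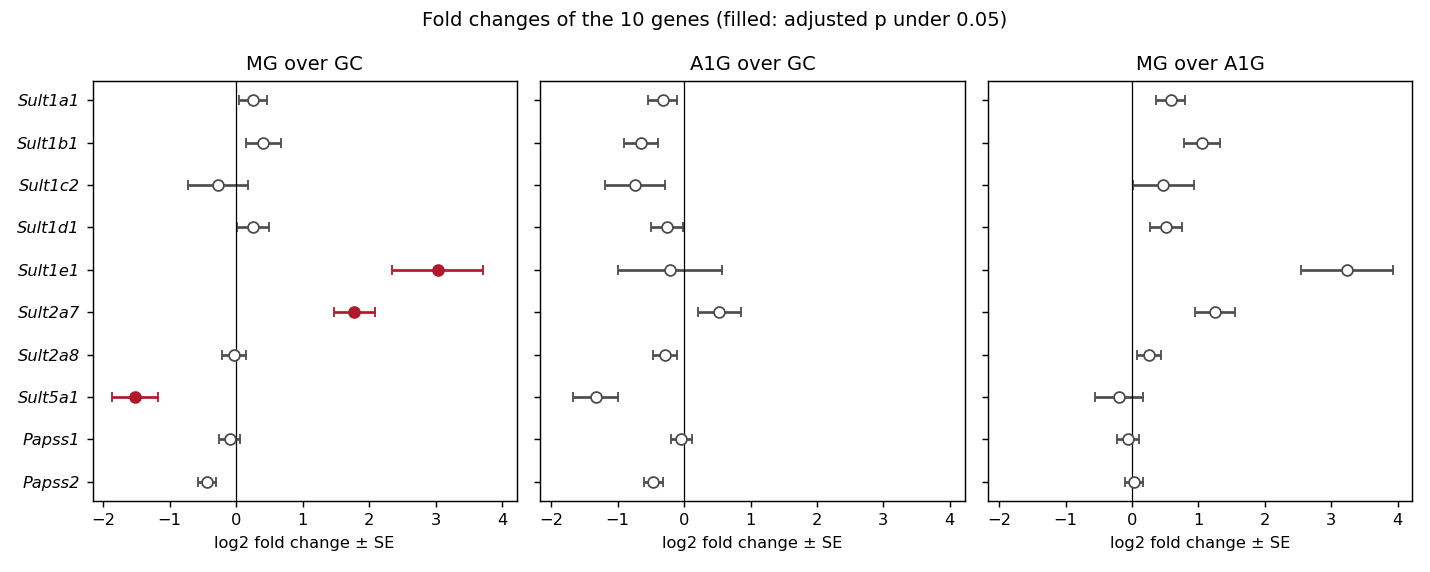
Log2 fold changes with SE (x axis) of the 10 genes (y axis) for MG over GC, A1G over GC and MG over A1G; filled red points have an adjusted p under 0.05 in edgeR. Only Sult1e1 (3.03), Sult2a7 (1.78) and Sult5a1 (-1.52) are filled, all for MG over GC.

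Among the abundant phenol sulfotransferases, Sult1a1 had 397, 459 and 416 CPM in MG mice, 189, 366 and 294 CPM in A1G mice and 404, 386 and 270 CPM in GC mice. The MG and A1G mice did not overlap, but the log2 fold change of 0.58 ± 0.22 for MG over A1G had an adjusted p of 0.405 in edgeR. The values for MG over GC and A1G over GC were 0.26 ± 0.21 and -0.32 ± 0.22 (adjusted p 0.561 and 0.527, edgeR). Sult1c2, a related gene of low level in the liver, had 0.635, 1.18 and 1.91 CPM in MG mice, 0.538, 1.16 and 0.960 CPM in A1G mice and 1.81, 1.33 and 1.29 CPM in GC mice. It rested on 11 to 37 counts per library, and its log2 fold changes were -0.27 ± 0.45, -0.74 ± 0.45 and 0.47 ± 0.46 for MG over GC, A1G over GC and MG over A1G, with adjusted p of 0.803, 0.482 and 0.843 in edgeR.

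Counted by overlap of CPM and not by the test, 5 of the 10 genes separated MG from GC mice (3 higher and 2 lower), against 22.7% of all genes (10.7% higher and 12% lower). In A1G compared to GC mice 3 separated, all lower in A1G mice, against 19.4% of all genes (9.45% higher and 9.97% lower), and in MG compared to A1G mice 4 separated, all higher in MG mice, against 15.4% (7.62% higher and 7.8% lower). Groups of this size separate often, as those backgrounds show.

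The PAPS synthases join sulfate to ATP and phosphorylate the product to give PAPS, and Papss2 is the main form in the liver. Papss2 had 126, 103 and 94.5 CPM in MG mice, 92.8, 118 and 108 CPM in A1G mice and 147, 161 and 130 CPM in GC mice. All flight livers were below all ground livers. The log2 fold changes were nearly equal, -0.44 ± 0.14 for MG over GC and -0.46 ± 0.14 for A1G over GC, but neither passed (adjusted p 0.114 and 0.167, edgeR), and on the TPM scale the flight and ground groups overlapped (35.0 to 46.7 TPM in MG, 35.4 to 41.9 TPM in A1G and 39.7 to 50.1 TPM in GC mice). For MG over A1G the value was 0.03 ± 0.14 (adjusted p = 0.988, edgeR). Papss1 had 14.7, 18.8 and 15.6 CPM in MG mice, 18.0, 15.1 and 18.1 CPM in A1G mice and 16.4, 14.7 and 21.7 CPM in GC mice. Its groups overlapped throughout, with log2 fold changes of -0.10 ± 0.16, -0.04 ± 0.16 and -0.06 ± 0.16 for MG over GC, A1G over GC and MG over A1G and adjusted p of 0.808, 0.938 and 0.967 in edgeR. The ratio of Papss2 to Papss1 in TPM varied more between mice of a group than between groups, from 2.52 to 5.35 in MG, 2.68 to 5.52 in A1G and 3.59 to 5.94 in GC mice. The coding sequences of the 2 genes were 69.3% identical.

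Sult1a1, Sult1b1 and Sult1d1 varied together from mouse to mouse in the A1G and GC groups, but not in the MG group, where they varied little. The distance of each liver from the mean of its own group, on the log2 CPM scale, was computed for each gene. In A1G mouse 1 it was -0.53 for Sult1a1, -0.69 for Sult1b1 and -0.57 for Sult1d1, and in A1G mouse 2 it was 0.42, 0.54 and 0.43. In GC mouse 3 it was -0.36, -0.48 and -0.47 for the same 3 genes, whereas all MG mice were within 0.18 of their mean for each of them. Over the 9 livers the distances of Sult1a1 correlated with those of Sult1b1 at r = 0.98 and of Sult1d1 at 0.97, and Sult1b1 with Sult1d1 at 0.95. Those of the abundant Sult2a8 correlated with Sult1a1, Sult1b1 and Sult1d1 at the lower values of 0.79, 0.81 and 0.74. With the same 3 genes, Papss2 was at 0.62, 0.71 and 0.74, and Papss1 at -0.54, -0.67 and -0.57. Without A1G mouse 1 and GC mouse 3 the values among the first 3 genes were 0.75, 0.81 and 0.55 (n = 7), so the strength rests in part on those livers. On the TPM scale with all 9 they were 0.93, 0.92 and 0.86. For scale, 0.227% of 13192 other genes had an r of at least 0.95 with Sult1a1. Within a liver the genes share their library, depth and normalisation, and over all genes the pairs of A1G mouse 1 with its group also had the largest chi-square of any pair within a group, so no test was made. Within a library, Sult1b1 was 4.35 to 5.32 per 100 Sult1a1 in TPM in MG mice, 2.98 to 3.49 in A1G mice and 4.01 to 4.71 in GC mice, with the A1G range below both others and no test made. Sult1d1 per 100 Sult1a1 overlapped among the groups (24.2 to 31.7, 27.3 to 31.2 and 26.3 to 30.4 in MG, A1G and GC mice).

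**Figure D4:**
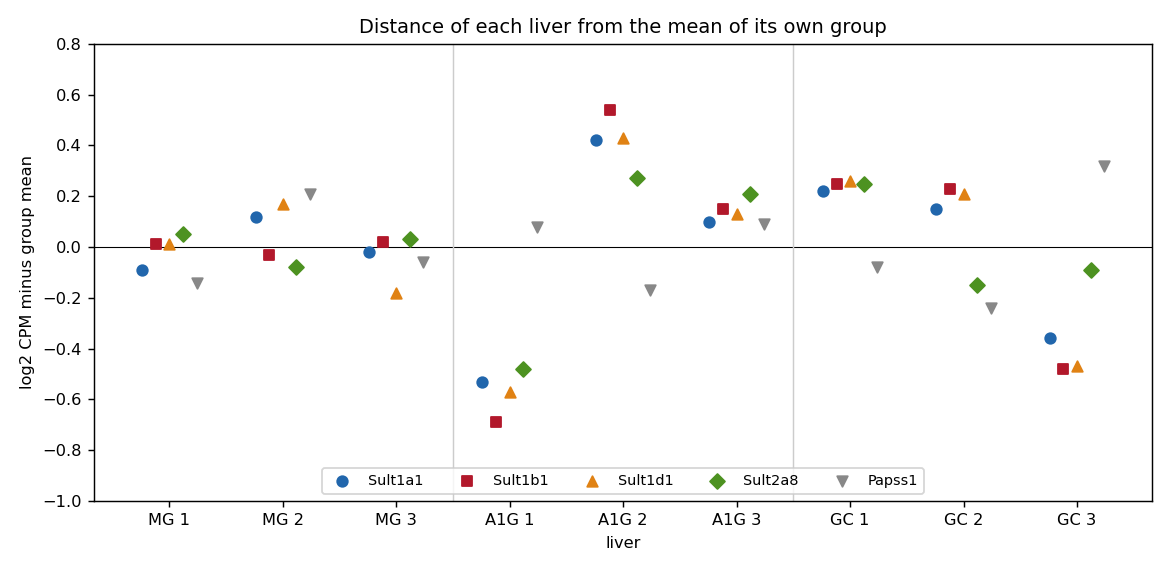
Distance of each liver (x axis) from the mean of its own group in log2 CPM (y axis) for Sult1a1, Sult1b1, Sult1d1, Sult2a8 and Papss1; each symbol is 1 gene. The first 3 genes sit together in each A1G and GC liver, at -0.53 to -0.69 in A1G mouse 1 and -0.36 to -0.48 in GC mouse 3. In MG livers they lie between -0.18 and 0.17, not always on the same side of the mean.

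For each gene that was called, the genes with the most similar pattern over the 9 livers were listed, among 10358 genes whose mean was 50 counts or more. The profile of Sult1e1 was closest to those of Gm9864 (Pearson's r of log2 CPM 0.965), the cytochrome P450 gene Cyp2c68 (0.960) and the ATP synthase gene Atp5s (0.957). Cyp2c68 had 357, 424 and 401 CPM in MG mice, 215, 164 and 206 CPM in A1G mice and 207, 251 and 178 CPM in GC mice. The profile of Sult2a7 was closest to Lcat (0.982), which esterifies plasma cholesterol, Mafg (0.955), a small MAF transcription factor, and the cytochrome P450 gene Cyp3a13 (0.952). Lcat had 415, 435 and 396 CPM in MG mice, 312, 340 and 323 CPM in A1G mice and 319, 282 and 293 CPM in GC mice. The profile of Sult5a1 was closest to the cytokine gene Tnfsf12 (0.952), the carboxylesterase gene Ces2g (0.952) and Clns1a (0.939). Ces2g had 31, 24.4 and 28.6 CPM in MG mice, 30.6, 33.0 and 32.7 CPM in A1G mice and 42.1, 48.9 and 41.1 CPM in GC mice. These genes were picked for their correlation with a called gene, so their own levels are a description.

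The steps around the transfer showed few calls. Of 10 tested genes that supply sulfate, 0 were called by edgeR in any comparison. An unadjusted p under 0.05 was found for 4 in MG over GC (1 higher and 3 lower), where 18.5% of all genes had one. The count was also 4 for A1G over GC (1 higher and 3 lower), against 14.2%, and 1 for MG over A1G (higher), against 8.97%. Slc26a2, a sulfate transporter, had a log2 fold change of 0.76 ± 0.28 for MG over GC and 0.86 ± 0.27 for A1G over GC (adjusted p 0.165 and 0.189, edgeR). Mpst and Tst, the sulfurtransferases of mercaptopyruvate and thiosulfate, were at -0.36 ± 0.13 and -0.34 ± 0.12 for MG over GC (adjusted p 0.161 and 0.172, edgeR), and Got1, which also acts on cysteine sulfinate, at -0.53 ± 0.24 (adjusted p = 0.269, edgeR). For A1G over GC, Mpst, Tst and Got1 were at -0.31, -0.35 and -0.59 (adjusted p 0.303, 0.241 and 0.3, edgeR). Of 4 tested genes for PAPS transport into the Golgi and for removal of the spent cofactor, 0 were called by edgeR in any comparison, with 1 at an unadjusted p under 0.05 for MG over GC (18.5% of all genes), 3 for A1G over GC (14.2%; 1 higher and 2 lower) and 0 for MG over A1G (8.97%). They were the PAPS transporters Slc35b2 (-0.14 ± 0.12) and Slc35b3 (-0.13 ± 0.18) and the phosphatases Bpnt1 (0.02 ± 0.10) and Impad1 (0.34 ± 0.14), as log2 fold changes of MG over GC. For A1G over GC, Slc35b2 was at -0.38 and Slc35b3 at -0.39 (adjusted p 0.185 and 0.351, edgeR).

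Of 18 tested Golgi sulfotransferases, which modify glycans, lipids and proteins, 0 were called in any comparison by edgeR, with 2 at an unadjusted p under 0.05 for MG over GC, against 18.5% of all genes. The smallest p was that of Tpst2, a protein tyrosine sulfotransferase, with 23.7 ± 1.32 CPM in MG mice and 34 ± 2.24 CPM in GC mice (SD, n = 3 each), a log2 fold change of -0.52 ± 0.15 and an adjusted p of 0.0962 in edgeR. Of 12 tested sulfatases and their activators, 1 was called by edgeR in MG over GC, against 3.33% of all genes, and 0 in the other comparisons. An unadjusted p under 0.05 was found for 5 of the 12 in MG over GC (3 higher and 2 lower), against 18.5% of all genes. The count was 4 for A1G over GC (2 higher and 2 lower), against 14.2%, and 2 for MG over A1G, against 8.97%. The called gene was Sulf2, which removes sulfate from heparan sulfate outside the cell. It averaged 10.1 ± 3.29 CPM in MG mice, 6.91 ± 0.918 CPM in A1G mice and 4.73 ± 0.460 CPM in GC mice (SD, n = 3 each), and rose in MG over GC (log2 fold change 1.09 ± 0.25, adjusted p = 0.0347, edgeR). The adjusted p of this difference was 0.131 and 0.0869 without MG mouse 2 or 3, 0.0522 without A1G mouse 2, and 0.106 and 0.14 without GC mouse 1 or 2 (edgeR). Over all 9 fits that left out 1 mouse each, the log2 fold change was between 0.93 and 1.35, and with limma on log2 TPM the adjusted p was between 0.068 and 0.161. Its values for A1G over GC and MG over A1G, 0.55 ± 0.25 and 0.54 ± 0.24, did not pass (adjusted p 0.342 and 0.534, edgeR). Of 17 tested transcription factors and receptors known to act on Sult genes, 0 were called in any comparison by edgeR, with 3 at an unadjusted p under 0.05 for MG over GC, against 18.5% of all genes. The nuclear receptor Nr1i3 was at 0.43 ± 0.16 for MG over GC (adjusted p = 0.184, edgeR) and the oxidative stress factor Nfe2l2 at -0.41 ± 0.14 (adjusted p = 0.145, edgeR). The median log2 fold changes of these lists for MG over GC lay between -0.06 and 0.11.

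**Figure D5:**
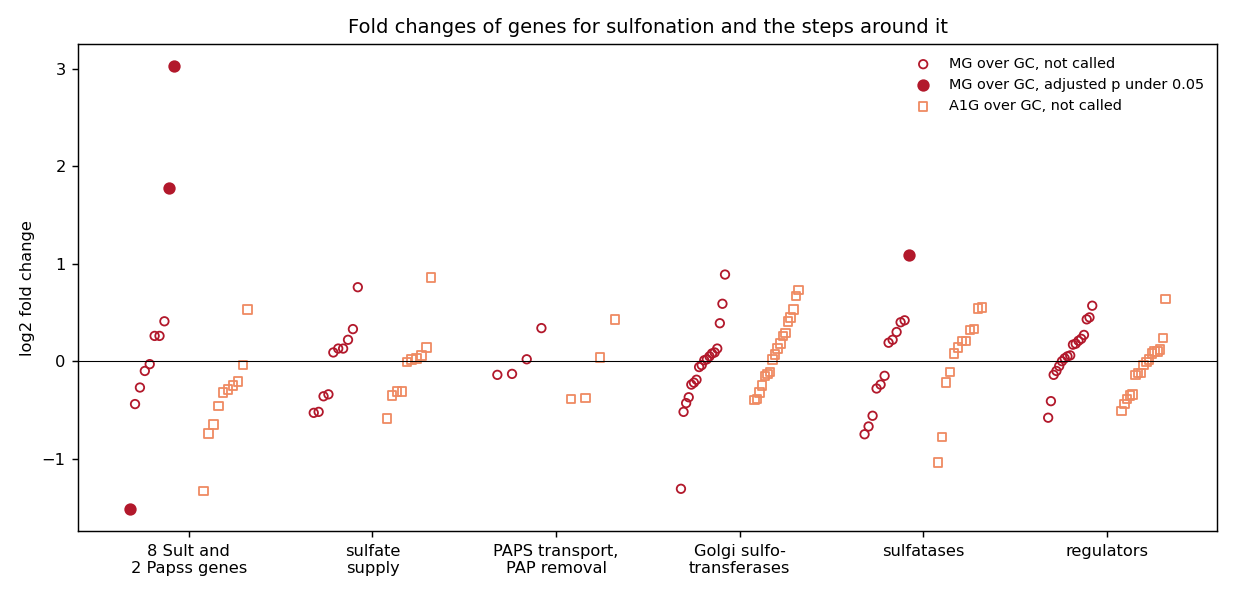
Log2 fold changes (y axis) of the 10 genes and of the genes of 5 neighbouring steps (x axis), each gene a circle for MG over GC and a square for A1G over GC, spread sideways by value; filled symbols have an adjusted p under 0.05. Beside Sult1e1, Sult2a7 and Sult5a1, the only filled symbol is Sulf2 at 1.09, and no square is filled.

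Calls were also counted in the 2 other large conjugation families of the liver. Of 18 tested Ugt genes, which join glucuronic acid to their substrates, 2 rose and 4 fell in MG compared to GC mice. Over all tested genes, 1.17% rose and 2.15% fell in that comparison. In A1G compared to GC mice 0 Ugt genes rose and 1 fell, against 0.174% and 0.47% of all genes. Several Ugt genes share exons, so their counts are uncertain. Of 20 tested Gst genes, which use glutathione, 0 rose and 2 fell in MG compared to GC mice, where all genes had the shares above. By edgeR 0 Gst genes were called in A1G over GC and MG over A1G, against 0.644% and 0.0758% of all genes.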

How the data were processed

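The authors trimmed reads with fastp 0.19.4, quantified them with Salmon 0.9.1 on GRCm38 and deposited 2 tables by gene, of estimated counts and of TPM. The annotation release is not given in the sources used here. Of the deposited estimated counts 17.1% were not whole, and they were rounded. Deposited tables of the authors' own tests (fold change, standard error, statistic, p-value and adjusted p-value) were used only to pair gene IDs with symbols.

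In R 4.3.3, edgeR 4.0.16 kept 13193 genes (filterByExpr, minimum count 10, 99.9% of counts), scaled the 9 libraries by TMM and fitted 1 coefficient per group. The SE is the absolute log2 fold change divided by the square root of F, and log2 CPM used a prior count of 2. DESeq2 1.42.0 and limma 3.58.1 on log2(TPM + 1) or log2(TPM + 0.1) were alternatives, as were other scalings and filters, a replicate block and each library left out. The fitting procedure was tested on simulated data. Library totals were 16898348, 20303599 and 13189515 in MG, 20596933, 19490377 and 23738049 in A1G and 23506273, 23180740 and 17399418 in GC mice. Each library is a separate mouse, and pairs within a group differed beyond counting error.

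The genes and lists were chosen with earlier results of these data known. Named were all 10 members, up to 4 genes of each neighbouring list (called first, then by smallest p in MG over GC) and, for each called member, the 3 genes with the highest Pearson's r. Markers named were those called or at 0. Some genes that the rule for named genes would include are not reported here.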

Additional observations from a re-analysis of the deposited data

Results flagged for a closer look

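Among the 10 genes, only Sult1b1 had all 3 MG mice above and all 3 A1G mice below the mean of the GC mice, 20.2 CPM, at 26.3 to 27.2 CPM in MG and 7.53 to 17.7 CPM in A1G mice. The difference itself, a log2 fold change of 1.06 ± 0.27 for MG over A1G, did not pass in edgeR (adjusted p = 0.196), and ranged from 0.78 to 1.35 when each mouse was left out in turn, with adjusted p of 0.14 to 0.432. DESeq2 and edgeR without a filter on low counts called it.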

How the results depend on the processing

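With 3 mice per group and fewer than 100 counts per library behind Sult1e1 and Sult2a7, only large differences of the low genes could be detected. Sult1e1 kept its call for MG over GC in all 12 settings run other than leaving out a mouse, and in 4 of 9 that left out a mouse. Sult2a7 kept it in 13 of 13 and 8 of 9, and Sult5a1 in 8 of 13 and 3 of 9. The same settings were run, as a choice made after seeing the data, for Sulf2 (10 of 13 and 4 of 9), Col1a1 (10 of 11 and 5 of 9) and Cela1 (12 of 13 and 6 of 9 for MG over GC, 8 of 13 and 4 of 9 for A1G over GC). The count of members lower in MG than in GC mice was 0 with scaling by library size only, with limma on log2(TPM + 1) or log2(TPM + 0.1), and with limma without a filter. The count of members higher was 1 with at least 10 counts in every library, since Sult1e1 was not tested there, and Sult1c2 was not tested by limma with a TPM filter. For A1G over GC, Sult5a1 made 1 member lower without a filter and with DESeq2 on 6 or 9 libraries. For MG over A1G, 2 members were higher without a filter and 3 with DESeq2 on 6 or 9 libraries. The genes called for MG over GC were 803 without a filter, 865 and 887 with DESeq2 on 6 and 9 libraries and 261 with unfiltered limma, against 439. For A1G over GC they were 384, 339, 412 and 1, and 51 with edgeR on 6 libraries, against 85. For MG over A1G they were 188, 183, 185 and 0, then 1 with library size only, 2 and 0 with limma on log2(TPM + 1) and log2(TPM + 0.1), 0 with edgeR on 6 libraries (1189 at an unadjusted p under 0.05) and 34 with robust empirical Bayes, against 10. Higher genes were 35.3% of calls for MG over GC but 64.6% with library size only and 81.2% with limma on log2(TPM + 1), and 27.1% for A1G over GC but 65.8% and 67.5%. Leaving out each mouse in turn gave 181 to 642, 4 to 204 and 0 to 48 genes called in the 3 comparisons (4 without A1G mouse 3 and 204 without GC mouse 3 for A1G over GC), 1 to 2 members higher and 0 to 1 lower for MG over GC, and 0 to 1 higher for MG over A1G, where the 1 was Sult1e1 without GC mouse 3 (adjusted p = 0.0449, edgeR). Signs turned only in comparisons where the member had no call. With library size only, log2 fold changes were 0.11 for Sult2a8 and 0.03 for Papss1 in MG over GC, 0.13 for Papss1 in A1G over GC and -0.01 for Papss2 in MG over A1G. With limma they were 0.25 for Sult2a8 in MG over GC, and in A1G over GC 0.02 for Sult1d1, 0.06 for Sult2a8, 0.04 for Papss1 and 0.07 or 0.51 for Sult1e1. Leaving out mice, values ran from -0.69 to 0.05 for Sult1c2, -0.10 to 0.11 for Sult2a8 and -0.21 to 0.08 for Papss1 in MG over GC, from -0.74 to 0.77 for Sult1e1 and -0.15 to 0.13 for Papss1 in A1G over GC, and from -0.44 to 0.12 for Sult5a1, -0.17 to 0.01 for Papss1 and -0.10 to 0.11 for Papss2 in MG over A1G. The causes were not tested.

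No source used here says that the replicate numbers pair mice. The correlation of same-numbered mice between groups ran from -0.008 to 0.114, and that of differently numbered mice from -0.088 to 0.041. Between MG and A1G, same-numbered mice were at 0.114, 0.059 and 0.097, above every differently numbered pair (-0.088 to 0.006). In pairs with GC mice the same-numbered and differently numbered values overlapped. Whether mice of a number share a batch or handling was not tested. With a replicate block, Sult5a1 lost its call for MG over GC (-1.55, adjusted p = 0.053, edgeR), leaving 0 members lower. The genes called with the block were 509 for MG over GC, 145 for A1G over GC and 44 for MG over A1G, against 439, 85 and 10. No other call of a member changed with the block.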
